A study of Mus musculus with 2 samples.

Results

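The MS4A genes encode small membrane proteins that cross the plasma membrane several times and that are relatives of the B cell antigen CD20. The set described here holds 8 of them that are transcribed in mouse monocytes, macrophages or T cells: Ms4a4a, Ms4a4b, Ms4a4c, Ms4a6b, Ms4a6c, Ms4a6d, Ms4a7 and Ms4a8a. Members were chosen by name, with earlier log2 ratios from these same arrays in view, so their ratios are descriptions and support no test. Probes were assigned by the RefSeq accession printed in the array files. Of the 8 genes, 7 had a probe (9 probes in all) and 6, with 8 probes, were well above background on both arrays, out of 20143 genes with a probe and 13843 measured on both arrays. No accession of Ms4a4a was matched, so it has no value, and the probe of Ms4a8a was not well above background on either array.

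The samples were 2 cultures of C57BL/6 mouse bone marrow cells, labelled GM-CSF + IL-6 and GM-CSF ONLY. Both received 40 ng/ml GM-CSF for 4 days in medium with 5% serum, and the first also received 40 ng/ml IL-6. Such cultures are used as a model of myeloid-derived suppressor cells and stay mixed, with monocytic, granulocytic and other marrow cells. Each culture was read on 1 single-colour Agilent array, with 57.9% of probes well above background with IL-6 and 59.1% without and 0 saturated spots, so differences between the cultures were not checked on replicates and no p-value could be computed.

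Several MS4A proteins sit beside signalling receptors in lipid-rich parts of the membrane. The protein of MS4A2 is the beta chain of the high-affinity IgE receptor, MS4A4A associates with the beta-glucan receptor Dectin-1 on macrophages, and variation at the human MS4A locus is linked to levels of soluble TREM2. IL-6 signals through STAT3, and several mouse Ms4a genes are used as markers when monocytes mature into tissue macrophages.

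In the RefSeq order of chromosome 19, 21 MS4A genes lie together with 11 other annotated genes between them. The members are not spread evenly over this cluster. Ms4a7, Ms4a4a, Ms4a4c, Ms4a4b, Ms4a6c, Ms4a6b and Ms4a6d follow each other in this order. Among them lie Ms4a4d, the protein-coding gene Gm8369 and several pseudogenes or noncoding genes. Ms4a8a lies apart, nearer the other end. Promoter windows, 250 bases before to 50 bases after an annotated start, were found in the RefSeq table (GRCm38.p6) for 7 of the 8 members, in 8 windows, with 2 for Ms4a7; Ms4a6d was not among them. The stretches before the start are shown for the genes whose window holds the core letters of an interferon-stimulated response element, GAAANNGAA on either strand (the reverse is TTCNNTTTC). Capitals mark these letters.
Ms4a6c (GRCm38.p6, chr19:11469118-11469367, plus strand): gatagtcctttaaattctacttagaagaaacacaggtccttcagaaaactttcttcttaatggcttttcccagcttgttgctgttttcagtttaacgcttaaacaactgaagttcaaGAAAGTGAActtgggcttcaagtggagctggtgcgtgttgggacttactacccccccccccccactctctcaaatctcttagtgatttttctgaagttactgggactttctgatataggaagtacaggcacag
Ms4a6b (GRCm38.p6, chr19:11518309-11518558, plus strand): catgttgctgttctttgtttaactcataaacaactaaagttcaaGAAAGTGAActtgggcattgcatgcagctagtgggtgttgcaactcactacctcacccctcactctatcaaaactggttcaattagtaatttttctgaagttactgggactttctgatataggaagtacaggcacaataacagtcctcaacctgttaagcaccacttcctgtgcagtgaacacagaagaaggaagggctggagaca
Ms4a7, outer start (GRCm38.p6, chr19:11336147-11336396, minus strand): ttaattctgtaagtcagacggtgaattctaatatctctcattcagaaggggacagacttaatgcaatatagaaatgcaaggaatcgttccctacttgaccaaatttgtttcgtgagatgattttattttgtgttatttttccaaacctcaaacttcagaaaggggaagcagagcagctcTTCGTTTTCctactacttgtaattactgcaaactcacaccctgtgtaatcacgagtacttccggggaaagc
Ms4a7, inner start (GRCm38.p6, chr19:11334696-11334945, minus strand): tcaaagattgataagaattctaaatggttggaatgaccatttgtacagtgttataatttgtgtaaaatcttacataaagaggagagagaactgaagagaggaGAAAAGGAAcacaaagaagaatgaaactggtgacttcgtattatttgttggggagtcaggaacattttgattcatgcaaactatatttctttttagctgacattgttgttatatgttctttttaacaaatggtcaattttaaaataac

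The core letters lay 133 bases before the start in Ms4a6c and 206 bases before it in Ms4a6b, in both as GAAAGTGAA. In Ms4a7 they lay 71 bases before the outer start, on the opposite strand as TTCGTTTTC, and 148 bases before the inner start as GAAAAGGAA. They were found in 4 of 8 member windows, in 1 of 16 windows of the other MS4A relatives (Ms4a18) and in 8.56% of all 32851 promoter windows of the same length. Ms4a6b and Ms4a6c also share an unbroken run of 48 bases, which begins 118 and 49 bases before their starts. Ms4a4b and Ms4a4c share the run ttctgcctcttagtcagtgg, which begins 41 and 38 bases before their starts, and both hold the core letters of a PU.1 site (GAGGAA or its reverse TTCCTC), 64 and 61 bases before the start. PU.1, a master factor of myeloid cells, had its core letters in 3 of 8 member windows, 6 of 16 windows of the relatives and 28.3% of all windows. The third member window was that of the outer Ms4a7 start, with the letters 43 bases after the start. Letters of a STAT site (TTCNNNGAA) were in 0 of 8 member windows, 1 of 16 of the relatives and 8.3% of all, and loose C/EBP letters (TTNNGNAA, reverse TTNCNNAA) in 8 of 8, 5 of 16 and 40.7%. None of the 20 matches in member windows shared bases with a match of another motif. A match describes letters in a window and does not show that a factor binds there.

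**Figure D1:**
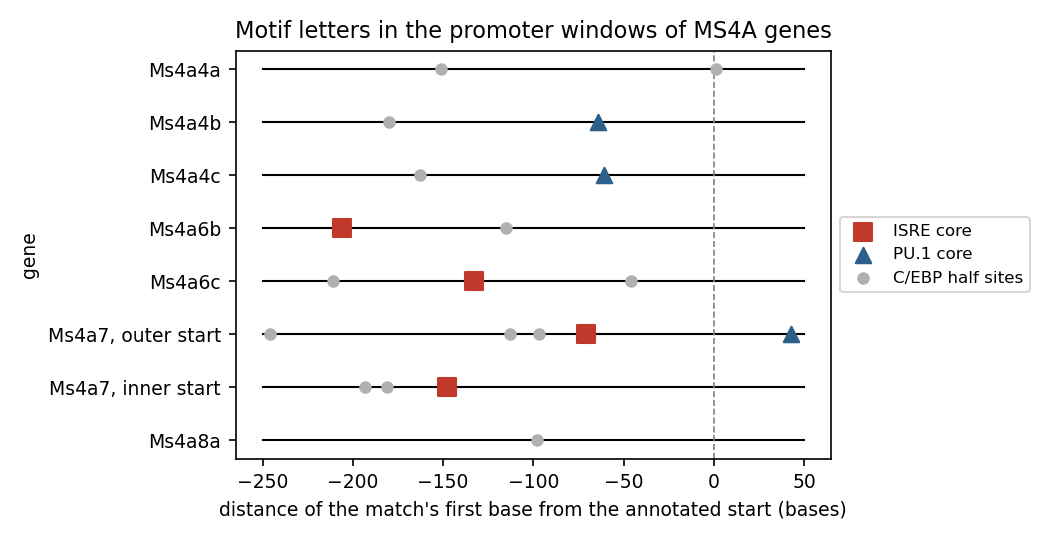
Positions of motif letters in the promoter windows of 7 MS4A genes; the horizontal axis is the distance in bases of the first base of a match from the annotated start (dashed line), and each line is 1 window. Squares (ISRE core) stand in the windows of Ms4a6b, Ms4a6c and both starts of Ms4a7. Triangles (PU.1 core) stand before the starts of Ms4a4b and Ms4a4c and after the outer start of Ms4a7.

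Values below are scaled signals, the processed intensities after each array was set to the same 75th percentile, and log2 ratios of the IL-6 culture minus the GM-CSF ONLY culture. The error after a log2 ratio is the technical SD of repeated spots at that signal, which covers spot error and not labelling or culture. The extraction software's own error model is wider, at 0.20 to 0.27 for the 8 measured member probes. Beyond 2 such SDs from 0 lay 6 of the 8 probes by the spot error and 2 by the software's error, those of Ms4a7 and Ms4a6c.

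Ms4a7, a gene of macrophages and microglia, had the lowest ratio. Its signal was 1107 with IL-6 and 1605 without, a log2 ratio of -0.54 ± 0.06, or 1.45-fold lower. Among the 13843 measured genes, 99 (0.715%) had a lower ratio, and among the 3461 genes of the same signal class (all genes split into 4 classes by mean signal) 6 did. Ms4a6c, a gene of monocytes, was at 1397 with IL-6 and 1878 without, a log2 ratio of -0.43 ± 0.06, or 1.34-fold lower. Its ratio was undercut by 230 genes (1.66%), 11 of them in its own signal class of 3461. The gap between Ms4a7 and Ms4a6c was 0.11 with a combined spot SD of 0.09, larger than 1 and smaller than 2 such SDs.

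Ms4a6d, the related monocyte and macrophage gene, was at 2120 with IL-6 and 2549 without, a log2 ratio of -0.27 ± 0.05. This sits just past 1.2-fold, the smaller of the sizes used for counting. The third gene of this branch, Ms4a6b, was read by a dim probe at 39.1 with IL-6 and 42.9 without, a log2 ratio of -0.13 ± 0.24, a difference smaller than its error. Both arrays gave this probe a signal close to background, with processed signals of 36.8 and 45.6 over local backgrounds of 54 and 48. With background correction by normexp its ratio was 0.00083, so its direction was not stable. Within the Ms4a6 branch the probes with ample signal were thus lower and the dim one was undecided.

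**Figure D2:**
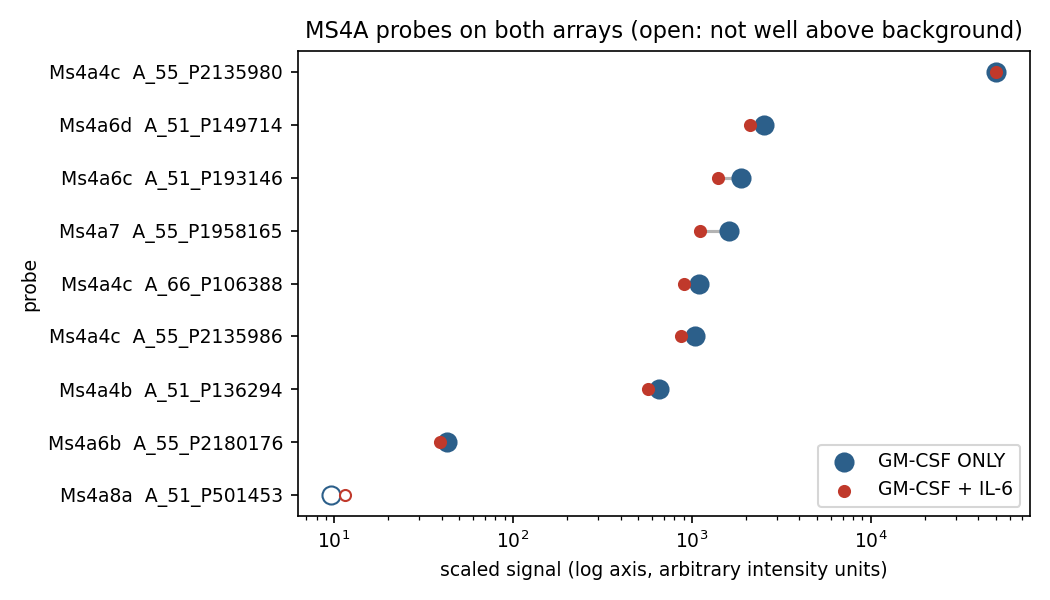
Scaled signal (horizontal, log axis) of the 9 member probes on the GM-CSF + IL-6 array (red) and the GM-CSF ONLY array (blue); open symbols are not well above background. The red point is left of the blue one for Ms4a7 (1107 against 1605) and Ms4a6c (1397 against 1878), and the points coincide for the bright Ms4a4c probe.

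Ms4a4c is transcribed in monocytes, and its 3 probes did not give 1 answer. The probe A_66_P106388 was at 906.5 with IL-6 and 1099 without, a log2 ratio of -0.28 ± 0.06. A second probe, A_55_P2135986, was at 870.9 against 1047, a log2 ratio of -0.27 ± 0.06. The brightest probe, A_55_P2135980, was at 50308 against 50474, a log2 ratio of -0.00 ± 0.04 that turned positive (0.0085 and 0.0090) with quantile normalization and in the authors' values. It differed from the others by 0.27 and 0.26, with a combined spot SD of 0.08 and a combined SD by the software's model of 0.29. All 3 probes carry the same RefSeq accession, the probe sequences were not analysed here, and whether the bright probe also reads a related transcript was not tested. Since a gene takes its brightest probe, Ms4a4c enters the counts with the ratio near 0.

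Ms4a4b, best known as a protein of T cells that associates with the costimulatory receptor GITR, was at 567.5 with IL-6 and 660.1 without, a log2 ratio of -0.22 ± 0.06. Of the measured genes, 9.04% had a lower ratio. The T and NK cell list, which would carry such a signal, had 8 of 12 genes measured. Of these, 5 were below 0, beside 56.2% of all genes, and the median log2 ratio was -0.03. The summed signal was 9583 with IL-6 and 9019 without, most of it from Cd4 (6106 and 5451). The lowest and highest genes of the list were Cd3d (-0.22 ± 0.24) and Cd4 (0.16 ± 0.04). Cd247, Klrb1c and Ncr1 were not well above background. The part of T or NK cells in the Ms4a4b signal was not tested. GITR itself, encoded by Tnfrsf18, was at 5209 against 5247, a log2 ratio of -0.01 ± 0.04.

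Ms4a8a, a gene reported in macrophages with an alternative or tumour-associated phenotype, was at 11.5 with IL-6 and 9.62 without, not well above background on either array, so no ratio is drawn from it.

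As a set, the 6 measured genes had a median log2 ratio of -0.24, from -0.54 to -0.00, against a median of -0.02 over all 13843 genes. All 6 were below 0 (5 with quantile normalization, with normexp and in the authors' values, and 5 of 5 with the stricter filter, which leaves 1 member out), where 56.2% of all genes were below 0. At least 1.2-fold lower were 3 of 6, Ms4a7, Ms4a6c and Ms4a6d, against 5.97% of all genes, and 0 of 6 were 1.2-fold higher, against 6.36%. The count of 3 was 2 with quantile normalization, cyclic loess and the authors' values, which put Ms4a6d at -0.26, -0.25 and -0.25, short of that size, and 4 with the median over a gene's probes, which adds Ms4a4c. No member reached 2-fold, a size that 0.383% of genes reached in either direction. Since the members were chosen with such ratios known, nothing is read from these shares. In the order of the 8 member probes by ratio, 0 of 7 neighbouring pairs differed by more than 2 combined spot SDs. Neighbours in such an order are close by construction, so probes further apart in it can still differ. The bright Ms4a4c probe differed from both other probes of that gene by more than 2 such SDs. In bulk RNA, fewer cells of a type and less RNA per cell cannot be told apart.

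**Figure D3:**
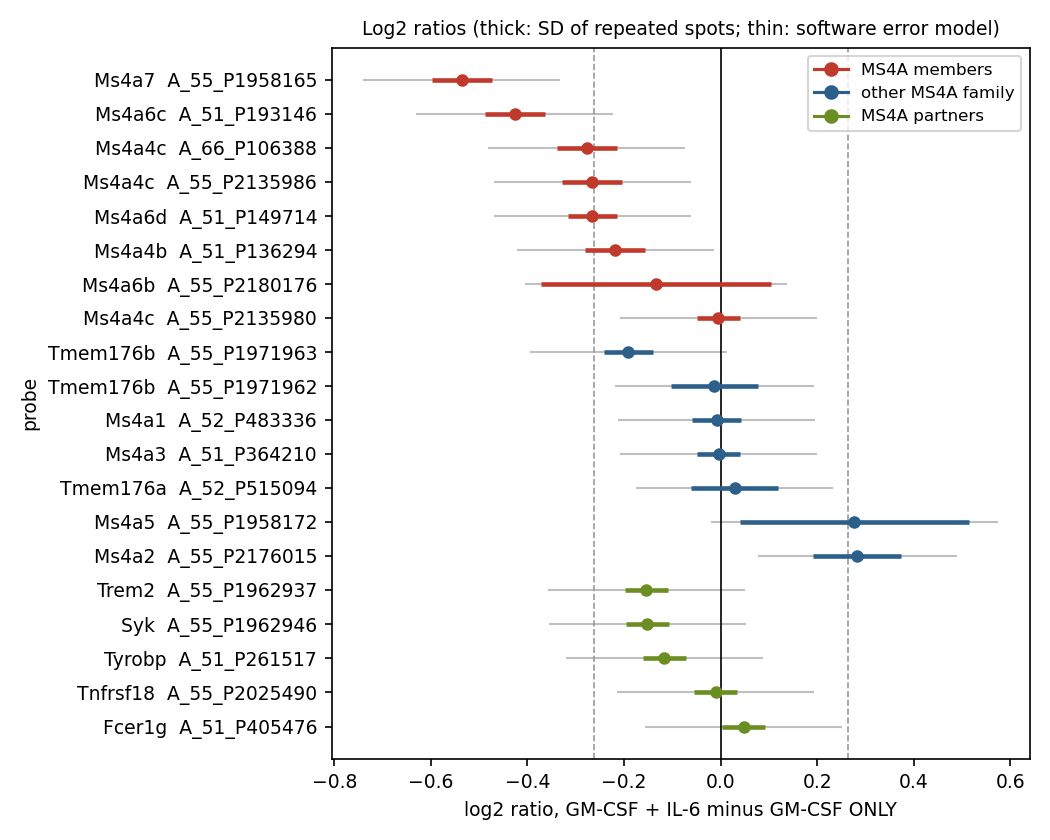
Log2 ratio, GM-CSF + IL-6 minus GM-CSF ONLY, of each measured probe of the members (red), other MS4A relatives (blue) and partner genes (green); thick bars are the SD of repeated spots, thin bars the software's error model, and dashed lines mark 1.2-fold. The points furthest left are Ms4a7 (-0.54) and Ms4a6c (-0.43), while Ms4a1 and Ms4a3 sit at 0 (-0.01 and -0.00).

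The other members of the family mark other blood cells. Of 15 relatives on a list written by symbol, 12 had a probe and 6 were measured. Of these, 3 were below and 3 above 0, beside 56.2% of all genes below 0, and their median log2 ratio was 0.01. Ms4a3, a gene of granulocyte and monocyte progenitors, was at 36431 with IL-6 and 36524 without, a log2 ratio of -0.00 ± 0.04. Ms4a1, which encodes CD20 of B cells, was at 3769 against 3791, a log2 ratio of -0.01 ± 0.05. Both ratios turned slightly positive with quantile normalization, cyclic loess and the authors' values, and are best read as 0 within the spot error.

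The mast cell and basophil relative Ms4a2 was on the other side of 0. Its signal was 261.9 with IL-6 and 215.2 without, a log2 ratio of 0.28 ± 0.09, or 1.22-fold higher. The software's error model gave this ratio a wider SD of 0.21. The list of mast cell and basophil genes had 6 of 7 measured members above 0, where 6068 of all 13843 genes were above 0. Its median was 0.11 and its summed signal 54509 against 50952. The highest gene was the tryptase gene Tpsb2 (0.42 ± 0.05), the lowest Hdc (-0.21 ± 0.04), and Cma1 was not well above background. The part of mast cells and basophils in the Ms4a2 value was not tested. Ms4a5 had a ratio of 0.28 ± 0.24 at a dim 36.2 against 29.8, no larger than 2 spot SDs. Another Ms4a5 probe was lower with IL-6 (10.6 against 16.4) but not well above background, so no ratio is drawn from it.

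Tmem176a and Tmem176b, more distant relatives on chromosome 6, are known from dendritic cells and macrophages. Tmem176a was at 542.0 with IL-6 and 531.2 without (0.03 ± 0.09). For Tmem176b, the brighter probe was at 4493 against 5129, a log2 ratio of -0.19 ± 0.05. This is beyond 2 spot SDs from 0 and lower than all but 11.9% of genes, but within the software's SD of 0.20 for this probe. The dimmer probe was at 242.8 against 244.9 (-0.01 ± 0.09). The relatives Ms4a4d, Ms4a10, Ms4a13, Ms4a15, Ms4a19 and Ms4a20 were not well above background, and Ms4a12, Ms4a14 and Ms4a18 had no matched probe. Among the 11 other genes inside the cluster, the 1 with a probe, Gm8369 between Ms4a6c and Ms4a6b, was at 176.8 with IL-6 and 198.9 without, a log2 ratio of -0.17 ± 0.09.

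**Figure D4:**
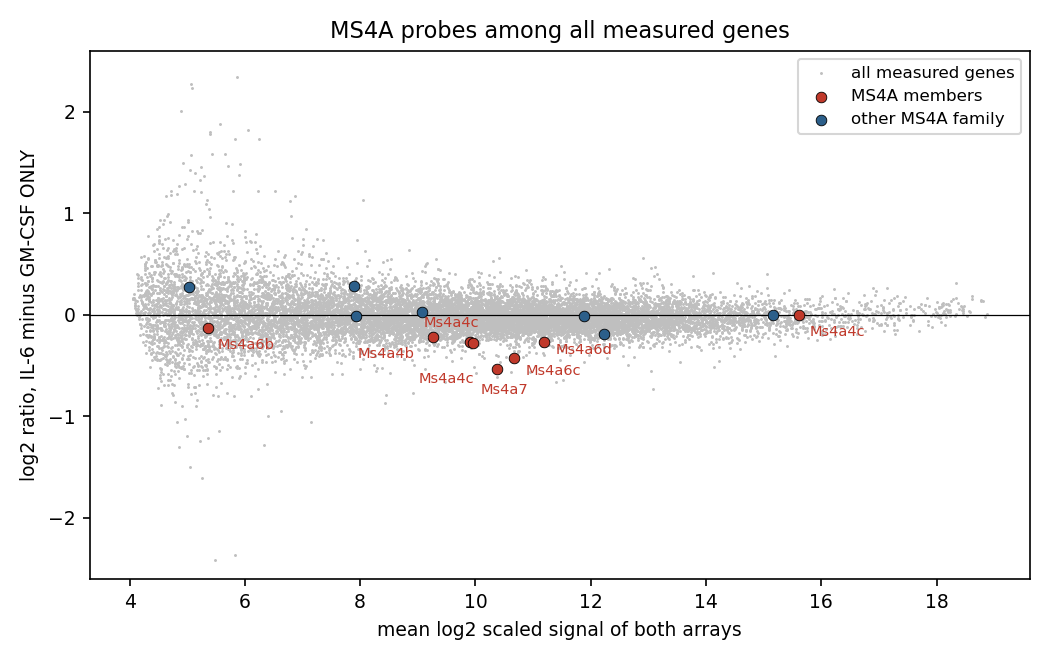
Log2 ratio against the mean log2 scaled signal for all 13843 measured genes (grey), with every measured probe of the members (red, named) and of the other MS4A relatives (blue). Ms4a7 (-0.54) and Ms4a6c (-0.43) lie at the lower edge of the cloud at middle signal, whereas Ms4a6b (-0.13) lies inside the wide cloud at low signal.

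Genes whose proteins are linked to MS4A proteins had ratios nearer 0 than Ms4a7 and Ms4a6c. Of 7 partner genes 5 were measured, 4 of them below 0 where 56.2% of all genes were, with a median log2 ratio of -0.12. The count 1.2-fold apart was 0, where 5.97% of all genes were that much lower and 6.36% higher. Trem2, a lipid receptor of macrophages, was at 8743 with IL-6 and 9725 without (-0.15 ± 0.04). Its adaptor gene Tyrobp had a log2 ratio of -0.12 ± 0.04, and Syk, the kinase that acts downstream of such adaptors and of Dectin-1, -0.15 ± 0.04. Fcer1g, the adaptor that joins Ms4a2 in the IgE receptor, had 0.05 ± 0.04. Vsig4 was not well above background, and the Dectin-1 gene Clec7a had no matched probe.

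Markers of the cells that carry MS4A transcripts had list medians between -0.16 and 0.11, beside -0.02 over all genes, and the counts below 0 stand beside 56.2% of all genes. Classical monocyte genes had 14 of 15 measured and 12 of them below 0, with a median log2 ratio of -0.16 and summed signals of 525597 with IL-6 and 537544 without. The lowest on this list was Cx3cr1, the fractalkine receptor gene (-0.58 ± 0.09), and the highest Chil3 (0.11 ± 0.04), and 0 defining genes were below background. Whether Cx3cr1 marks classical rather than non-classical monocytes in these cultures was not tested. Of 10 non-classical monocyte genes, 6 were below 0, with a median of -0.11, sums of 39515 against 42430, and a range from Cd36 (-0.20 ± 0.09) to Ace (0.21 ± 0.24). For macrophage genes 9 of 14 were measured and 6 below 0, with a median of -0.08 and sums of 20358 against 22287. They ranged from Apoe (-0.40 ± 0.02) to the mannose receptor gene Mrc1 (0.27 ± 0.09). The Apoe error is the pooled spot SD at its signal, made smaller because its value is a mean of repeated spots. Cd163, Folr2, Lyve1 and Timd4 were not well above background.

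The remaining lists gave medians of -0.12 for dendritic cell genes (6 of 8 below 0, Zbtb46 at -0.34 ± 0.24 to Cd74 at 0.19 ± 0.04, sums of 300113 against 286261), -0.03 for neutrophil genes (8 of 13 below 0, Mmp8 at -0.25 ± 0.04 to S100a9 at 0.14 ± 0.04, sums of 1640500 against 1597700) and -0.06 for B cell genes (5 of 6 below 0, Vpreb1 at -0.47 ± 0.24 to Cd79a at 0.19 ± 0.09, sums of 20409 against 20971). Xcr1 and Igll1 were not well above background. Monocyte and neutrophil genes of the labelled suppressor cells were measured, and so were most listed genes of B, T and NK, and mast cells. Ly6c2 and Ly6g, the genes of the usual gating antigens, had no matched probe. The part of any of these cells in the MS4A values was not tested.

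Position on the array was looked at for each member. The median log2 ratio of the 99 to 118 measured spots in the tile of 16 rows by 12 columns around a member probe lay between -0.03 and 0.03. The Ms4a6b probe, in row 10, and the Ms4a4c probe A_66_P106388, in row 42, lay in the first 48 rows, where the SD of ratios over genes was 0.24 against 0.20 elsewhere. Centred on their tiles, the ratios of Ms4a7 and Ms4a6c were -0.54 and -0.42.

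**Figure D5:**
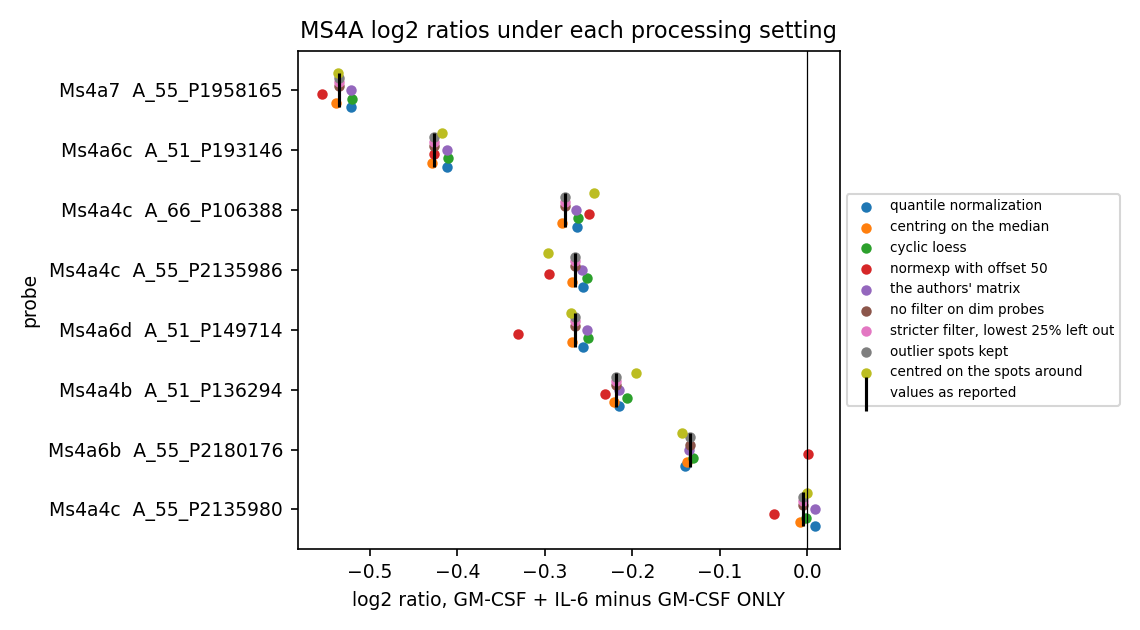
Log2 ratio of each measured member probe (rows) under the reported processing (black bar) and under the other settings (coloured points, horizontal axis). Ms4a7 stayed between -0.55 and -0.52 and Ms4a6c between -0.43 and -0.41, while Ms4a6b reached 0.00 with normexp.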

How the data were processed

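Total RNA of 2 cultures was hybridised to 1 Agilent array each. Per the file headers, Agilent Feature Extraction 10.7.1.1 produced the deposited processed intensities, which were not scaled between arrays. The authors' matrix of log2 values has a median of 5.10 on both arrays. None of the sources used here names the software that made this matrix. Each array was centred by subtracting the 75th percentile of its log2 processed intensities, control spots left out. Outlier spots were left out, spots of a probe averaged, and a probe was measured when at least 50% of its spots were well above background on both arrays; a gene takes its brightest measured probe. Probes were named by RefSeq accession without version (26577 of 55669 probes; GRCm38.p6 table). No test was run, since each condition has 1 array, and having only 2 arrays limits the precision. Spot SDs come from 266 probes with at least 5 spots, in 5 signal bins. The code was tested on simulated data. Members and lists were chosen with earlier results of these data known. The text names every member probe, the measured relatives and partners, the lowest and highest gene of each marker list and the measured gene inside the cluster. Alternatives were other scalings, normexp with an offset of 50, the authors' matrix, filters on dim probes (none, or the lowest 25% left out), outlier spots kept, the median over probes and centring on tiles. Tools were Python 3.11.15, numpy 2.4.6, pandas 2.3.3, matplotlib 3.10.9, R 4.3.3 and limma 3.58.1.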

Additional observations from a re-analysis of the deposited data

How the results depend on the processing

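The median log2 ratio of the members stayed between -0.28 (normexp) and -0.22 (no filter on dim probes) over all 10 alternatives. Their count below 0 was 5 or 6, with 5 of 5 under the stricter filter and 6 of 7 without a filter. Under the same alternatives, 46.5% (no filter) to 58.6% (stricter filter) of all genes were below 0. The count of members at least 1.2-fold lower ran from 2 to 4. Of all genes, 2.18% (normexp) to 9.82% (no filter) were that much lower. The median of the other relatives, near 0, was 0.156 without a filter on dim probes and -0.0037 with the stricter filter, which change the genes included; that of the partners ran from -0.17 to -0.08. Filters and outlier spots cannot alter the ratio of these probes; of 90 probe values under the other settings, 75 kept their sign and moved by less than the spot SD, 3 moved by more and 12 changed sign. Those that moved, all with normexp, were Ms4a6d (-0.33), Ms4a2 (0.39) and the brighter Tmem176b probe (-0.26). Those that changed sign were close to 0: Ms4a1 with quantile normalization (0.0208), cyclic loess (0.0053), normexp (0.0186) and the authors' matrix (0.0059), Ms4a3 with quantile normalization (0.0055), cyclic loess (0.00097) and the authors' matrix (0.0055), the bright Ms4a4c probe with quantile normalization (0.0085) and the authors' matrix (0.0090), Ms4a6b with normexp (0.00083), and the dimmer Tmem176b probe with normexp (0.0049) and tile centring (0.0183). The cause was not tested. Dim probes such as Ms4a6b and Ms4a8a limit what can be read at this signal over background. No paired analysis was possible because only 1 array stood for each culture.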
